A study of Mus musculus with 2 samples.

Results

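Of 1383 genes typed as small nuclear RNA (snRNA) in the deposited transcript tables, 30 reached a mean expected count of 10 over the 2 adrenal gland libraries. These 30 genes belonged to U2 (11 genes), U1 (15 genes), a U4-like pair (2 genes), U12 (1 gene) and a U6atac-like gene (1 gene). They were chosen by their count, so their abundance is a description and not a finding. An expected count is the estimated number of sequenced fragments of a gene, and it need not be whole. The libraries were made from total RNA of adrenal gland tissue. The animals were females of 8 to 10 months of the strain B6CASTF1/J, an F1 hybrid of C57BL/6J and CAST. Replicate 2 came from animal 3 and replicate 1 from animal 1, each from 300 ng of RNA with added ERCC spike-in RNA. The labels give separate animal numbers but 1 donor code, and those used here name no treatment. There was 1 group, so the libraries were compared with each other without a test and with no p-value.

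Small nuclear RNAs are the RNA parts of the spliceosome, the machine that removes introns from pre-mRNA. U1 pairs with the 5′ splice site, U2 pairs with the branch site, U4 holds U6 in an inactive pairing, U6 forms the catalytic core and U5 aligns the exons. A rarer set of introns is removed by the minor spliceosome, which uses U11, U12, U4atac and U6atac in place of U1, U2, U4 and U6, with U5 in common. Most of these RNAs carry a ring of Sm proteins on a uridine-rich site, whereas U6 and U6atac carry an Lsm ring. Mouse genomes hold many near-identical copies of each gene, some active and many of them pseudogenes. U7, also typed as snRNA, acts in the processing of histone mRNA 3′ ends and not in splicing.

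The gene tables held 34235715 expected counts over 55536 annotated genes in replicate 2 and 40362256 in replicate 1. The cortex markers Star, Cyp11a1, Cyp11b1, Hsd3b1 and Nr5a1 summed to 20437 TPM (a level scaled to the library and corrected for length) in replicate 2 and 19396 TPM in replicate 1. The 4 chromaffin markers summed to 1424 and 1519 TPM in replicates 2 and 1. The 4 adipocyte markers summed to 444 TPM in replicate 2 and 797 TPM in replicate 1, with all 4 lower in replicate 2. The part of fat tissue in the snRNA values was not tested. In whole tissue, a change in the number of cells and a change in RNA per cell cannot be told apart.

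One copy of each family that was measured is shown first, with capitals at stretches of known function. Families with a named copy were assigned by sequence match and not by these stretches. Sequences are GENCODE M21 transcripts on GRCm38 (mm10), printed 5′ to 3′ with T for U. In Rnu1a1 (chr11:87422867-87423030, plus strand) the capitals mark ACTTACC, which pairs with the 5′ splice site, and ATTTGTG, which holds the Sm site.
Rnu1a1: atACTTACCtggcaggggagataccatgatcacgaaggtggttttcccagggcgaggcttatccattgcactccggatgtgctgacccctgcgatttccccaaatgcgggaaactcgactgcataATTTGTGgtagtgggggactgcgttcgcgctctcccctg
In Rnu2-10 (chr11:101658238-101658428, plus strand) they mark GTAGTA, which pairs with the branch site, and the Sm site ATTTTTG.
Rnu2-10: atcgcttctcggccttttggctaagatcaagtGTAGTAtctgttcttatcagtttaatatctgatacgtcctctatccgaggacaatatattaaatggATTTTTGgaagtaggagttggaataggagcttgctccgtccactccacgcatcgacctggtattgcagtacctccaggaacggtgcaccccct
In Gm24407 (chr5:115490254-115490394, plus strand) they mark the Sm site.
Gm24407: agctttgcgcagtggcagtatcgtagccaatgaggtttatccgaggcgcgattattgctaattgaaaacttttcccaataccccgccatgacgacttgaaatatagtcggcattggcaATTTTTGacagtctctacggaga
In Rnu12 (chr15:83149644-83149794, plus strand) they mark AAGGAA, the branch site pairing stretch of U12, and the Sm site.
Rnu12: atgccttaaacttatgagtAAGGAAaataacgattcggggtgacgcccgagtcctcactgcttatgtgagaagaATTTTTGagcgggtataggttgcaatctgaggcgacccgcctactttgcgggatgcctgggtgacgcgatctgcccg
In Gm25541 (chr2:27539805-27539930, minus strand) they mark AAGGAGA, the stretch by which U6atac contacts the 5′ splice site.
Gm25541: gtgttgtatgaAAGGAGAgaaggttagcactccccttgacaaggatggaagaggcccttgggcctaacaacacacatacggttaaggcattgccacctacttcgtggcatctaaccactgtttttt

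The marked stretches were counted by family as a description. Genes that matched a named copy were placed in families by sequence match, and Gm25541 was named by its U6atac stretch. The U4-like pair had no match and was set apart by lacking that stretch, with no stretch particular to U4 used. The counts by family therefore do not test the assignment. The splice site stretch and the Sm stretch of Rnu1a1 were in 15 of 15 U1 genes, the branch site stretch of Rnu2-10 was in 11 of 11 U2 genes, and its Sm site was in all U2, U4-like and U12 genes, 14 in all. The splice site stretch of U1 was in 4.70% of the 1383 snRNA models and in 0.252% of 3575 other annotated transcripts of 101 to 200 bases. The same shares were 3.69% and 1.54% for the branch site stretch of U2, 3.33% and 0.699% for its Sm site, and 12.9% and 1.17% for the Sm stretch of U1. The U12 stretch was in Rnu12 alone among the 30 genes, with shares of 2.46% and 6.80%, and the U6atac stretch in Gm25541 alone, with shares of 1.23% and 2.41%. On the opposite strand, these 6 stretches were in none of the 30 genes. A match describes the letters only and is no evidence of binding.

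Of the 30 genes, 27 matched a copy that carries a family name, at 80% identity over 80% of the length. The 3 others were named from their letters after the sequences had been seen. The pair Gm24407 and Gm24265 carries the Sm site and lacks the U6atac stretch, whereas Gm25541 has that stretch and no such Sm site. The pair is called U4-like and Gm25541 U6atac-like here, and these names were not tested further.

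By deposited TPM, U2 was the most abundant measured family in both libraries, followed by U1 and the U4-like pair. U2 genes summed to 11905 TPM in replicate 2 and 10361 TPM in replicate 1 (mean 11133 ± 1091, SD, n = 2). U1 genes summed to 7539 TPM in replicate 2 and 5947 TPM in replicate 1 (mean 6743 ± 1126, SD, n = 2). The U4-like pair summed to 3066 TPM in replicate 2 and 3156 TPM in replicate 1 (mean 3111 ± 63.9, SD, n = 2). The ranges of the 3 families did not overlap, and U2 exceeded U1 by 1.58-fold in replicate 2 and 1.74-fold in replicate 1. As mean shares of the 30 genes' TPM, U2 held 52.9%, U1 31.9% and the U4-like pair 14.9%.

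These ratios depend on the length correction. The effective length in the gene tables is the length less 100 bases, which leaves 91 bases for U2, 64 for U1, 51 for U12, 41 for the U4-like genes and 26 for Gm25541. In counts without a length correction, U2 held 64.4%, U1 27.3% and the U4-like pair 8.16% of the 30 genes' total. With counts divided by the full length instead, U2 exceeded U1 by 1.93-fold in replicate 2 and 2.13-fold in replicate 1. The order of the 3 families was the same on all 3 scales, while the shares moved with the scale. It was also the order of their median lengths, 191 bases for U2, 164 for U1 and 141 for the U4-like pair. Whether the libraries kept RNAs of these lengths equally was not tested, so the order describes these libraries and not levels in cells. Together the 30 genes held 0.164% of all gene counts in replicate 2 (Wilson 95% interval 0.162 to 0.165) and 0.140% in replicate 1 (0.139 to 0.141). Such intervals cover counting error only.

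**Figure D1:**
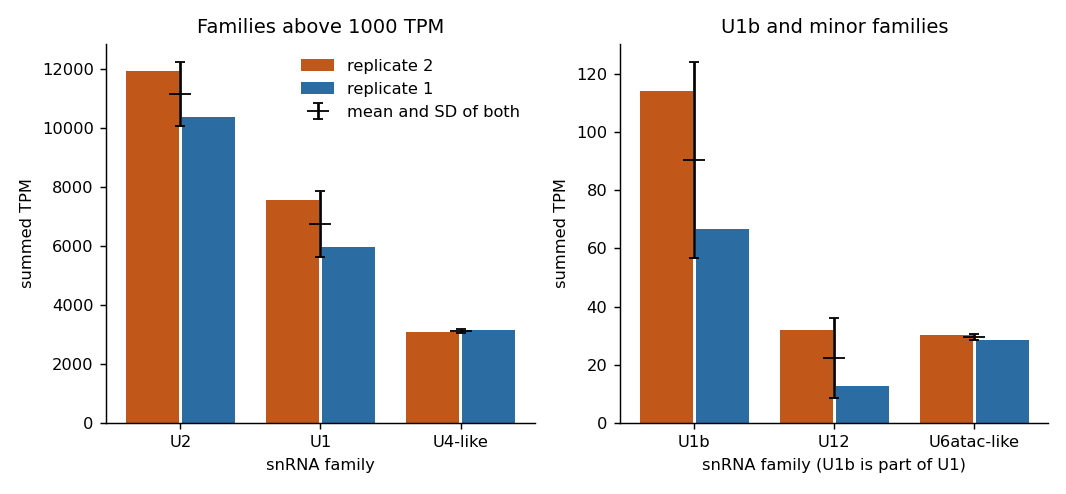
Summed TPM of each snRNA family (vertical axes, TPM) in replicate 2 (orange) and replicate 1 (blue), with the mean and SD of both libraries in black; U1b, also part of U1, and the minor families are on their own scale. U2 stands at 11905 and 10361 TPM in replicates 2 and 1, above U1 and the U4-like pair, and U12 and the U6atac-like gene stay below 33 TPM.

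Within U1, the genes divided into 12 of the U1a form and 3 of the U1b form. In the mouse, U1b RNA is known to be more prominent in embryonic tissues and U1a in adult ones. U1a genes summed to 7425 TPM in replicate 2 and 5880 TPM in replicate 1, and U1b genes to 114 TPM in replicate 2 and 66.6 TPM in replicate 1. U1a therefore exceeded U1b by 65.0-fold in replicate 2 and 88.3-fold in replicate 1, with the U1b copy Gm22042 at an expected count of 0 in replicate 1. Both forms had counts assigned in both libraries, with 246 expected counts of U1b in replicate 2 and 168 in replicate 1. The deposited TPM intervals of the 3 single U1b genes began near 0, at 0.162 TPM or less in replicate 2 and 0.0311 TPM or less in replicate 1.

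A selection of U1 and U2 copies that differ from the family's named copy is shown because the differing bases, in capitals, decide which fragments can be assigned to 1 gene. Substitutions are counted from 1 at the 5′ end, with the named copy's base first. Gm22614 (chr3:96488729-96488893, plus strand) is the U1b form, with capitals at 5 substitutions and 1 inserted base relative to Rnu1a1.
Gm22614: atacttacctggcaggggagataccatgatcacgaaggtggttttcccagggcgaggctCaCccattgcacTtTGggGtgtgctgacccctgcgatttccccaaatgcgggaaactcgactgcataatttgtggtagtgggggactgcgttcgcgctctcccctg
Gm22513 (chr12:54696782-54696945, plus strand) differs from Rnu1a1 by T60C.
Gm22513: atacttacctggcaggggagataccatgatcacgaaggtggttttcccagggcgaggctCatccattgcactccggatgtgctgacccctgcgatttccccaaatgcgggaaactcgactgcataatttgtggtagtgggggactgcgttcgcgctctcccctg
Gm23238 (chr19:18732741-18732904, plus strand) differs from it by G12A, A23T, C153T and C160A.
Gm23238: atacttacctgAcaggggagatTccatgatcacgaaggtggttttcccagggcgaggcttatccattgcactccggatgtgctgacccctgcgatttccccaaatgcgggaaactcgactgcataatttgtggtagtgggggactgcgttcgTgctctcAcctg
Gm23472 (chr1:72236946-72237136, plus strand) differs from Rnu2-10 by G109C, and Gm23444 (chr11:83271498-83271688, plus strand) has the same sequence.
Gm23472: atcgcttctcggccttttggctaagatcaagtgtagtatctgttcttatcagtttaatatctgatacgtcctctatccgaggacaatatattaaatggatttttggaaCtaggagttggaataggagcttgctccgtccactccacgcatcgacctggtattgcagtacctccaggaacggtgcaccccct
Gm25939 (chr1:72255008-72255198, plus strand) differs from Rnu2-10 by T69C, C78T and G109C.
Gm25939: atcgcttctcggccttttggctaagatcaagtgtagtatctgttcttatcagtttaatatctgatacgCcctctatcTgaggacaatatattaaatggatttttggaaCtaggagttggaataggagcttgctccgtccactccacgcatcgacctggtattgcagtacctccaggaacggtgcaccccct
Gm24497 (chr1:72244213-72244403, plus strand) differs from it by G109C and by C186A, close to the 3′ end.
Gm24497: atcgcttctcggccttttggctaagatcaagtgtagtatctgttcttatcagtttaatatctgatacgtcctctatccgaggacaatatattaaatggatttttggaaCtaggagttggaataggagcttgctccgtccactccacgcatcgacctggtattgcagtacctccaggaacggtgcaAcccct
Gm26316 (chr11:101604850-101605040, plus strand) differs from it by C170T.
Gm26316: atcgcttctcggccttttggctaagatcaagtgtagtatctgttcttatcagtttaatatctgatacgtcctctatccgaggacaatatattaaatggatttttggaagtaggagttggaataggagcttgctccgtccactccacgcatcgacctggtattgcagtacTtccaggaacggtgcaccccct

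The 30 genes held 19 distinct sequences, because 15 of them shared their sequence with another of the 30 in 4 groups. Within each of these 4 groups all copies had equal expected counts, so the value of a single copy is the group's sum divided over its copies. Rnu1a1 and 6 identical U1a copies (Gm22068, Gm22317, Gm22634, Gm23804, Gm25679 and Gm26444) summed to 12643 counts in replicate 2 and 11626 in replicate 1. Rnu2-10 and its identical copies Gm23849, Gm23971 and Gm24950 summed to 17003 counts in replicate 2 and 16951 in replicate 1. The U2 copies Gm23472 and Gm23444 summed to 15470 counts in replicate 2 and 17014 in replicate 1, or 7735 and 8507 for each copy. Their posterior mean counts, a second deposited estimate, were lower. They were 6766 for Gm23472 and 5788 for Gm23444 in replicate 2, and 7050 and 5941 in replicate 1. The sum of this pair thus depends on the estimate used. These 3 sequences carried most of the U1 and U2 counts. The identical U1b copies Gm22614 and Gm25890 summed to 189 counts in replicate 2 and 168 in replicate 1. Both had posterior mean counts below their expected counts in both libraries.

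Sharing was measured as the percentage of a gene's 50-base words that also occur in another snRNA model. Over the 30 genes it averaged 80.1%, and 15 genes had no word of their own. Every shared word came from snRNA models, since counting words of any other annotated transcript gave the same 80.1%. Gm25541 shared no word with another model, the U4-like genes shared 41.3% and Gm25939 shared 58.5%. With words of 100 bases the average was 68.3%, 15 genes still had no word of their own and 6 genes shared none. The authors' tables give a posterior SD of each count, which is the error of estimation within 1 library. As a share of the posterior mean count it had a median of 51.3% in replicate 2 and 54.0% in replicate 1 among the 15 genes without a word of their own. Among the 15 other genes the medians were 0.284% in replicate 2 and 1.33% in replicate 1, with a range reaching 96.4% and 102.9%.

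**Figure D2:**
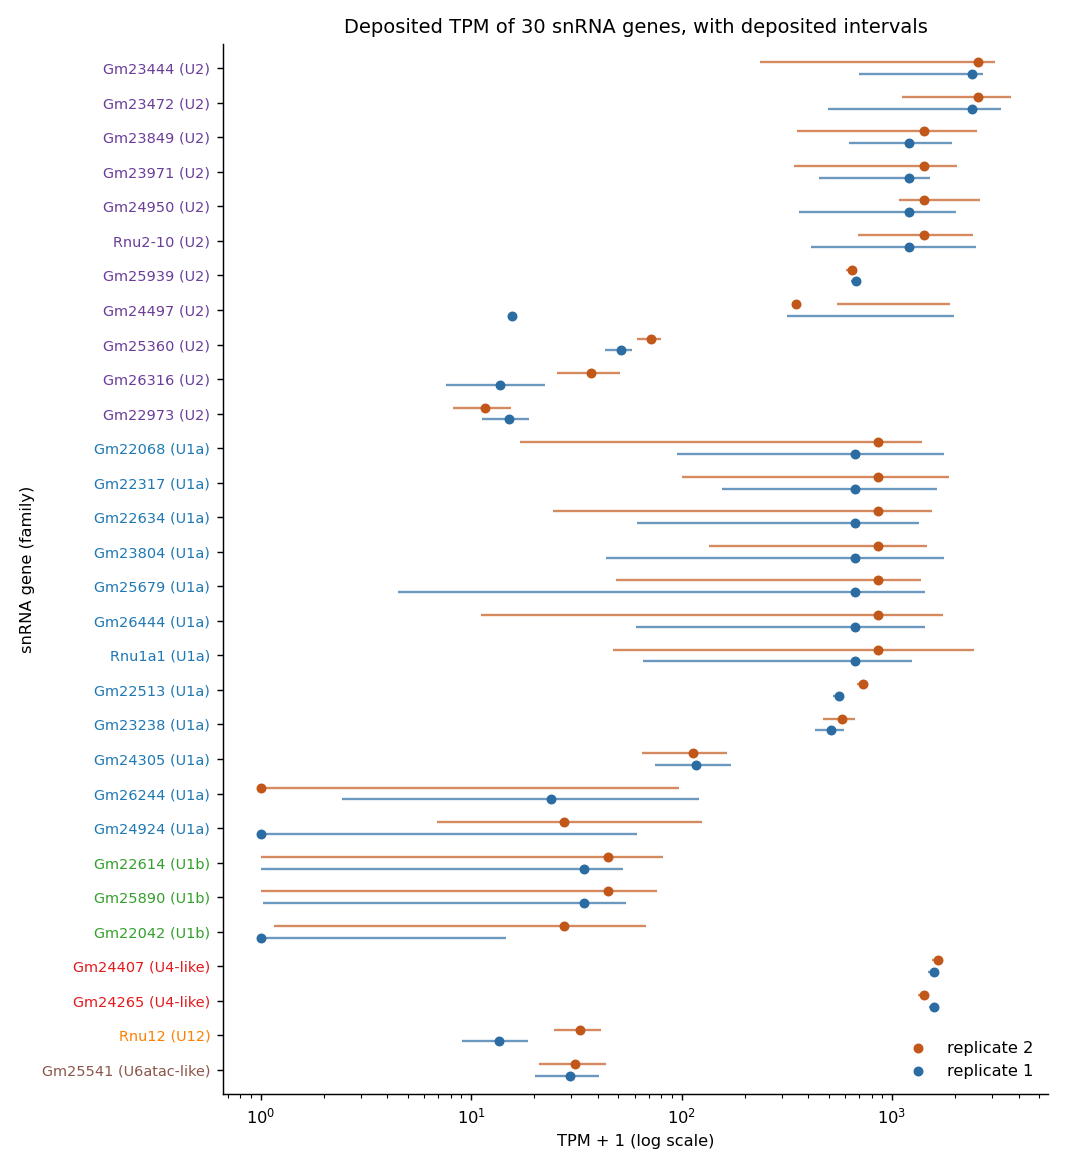
Deposited TPM plus 1 on a log scale (horizontal axis) of the 30 snRNA genes, with lines for the authors' deposited intervals of TPM within each library; replicate 2 is orange and drawn above replicate 1 in blue. Copies of identical sequence have equal points and wide lines, whereas the U4-like genes, Gm25939 and Gm22513 have narrow ones, and both points of Gm24497 lie outside their own lines.

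Some copies with their own words had narrow estimates. Gm22513 had 1545 counts in replicate 2 and 1395 in replicate 1 (731 and 560 TPM in replicates 2 and 1), and the authors' TPM intervals were apart. Gm23238 had 1225 counts in replicate 2 and 1272 in replicate 1, and lies antisense to the annotated gene AC134906.1, so its value is uncertain if strand was not used in counting. Gm25939 had 1934 counts in replicate 2 and 2389 in replicate 1. Each of these 3 copies thus had over 1000 counts assigned to it in both libraries. Whether CAST alleles of other copies carry the same bases was not analysed, so origin from 1 locus was not tested. Lower copies with their own words were Gm24305 (237 counts in replicate 2 and 290 in replicate 1, A26G relative to Rnu1a1) and Gm25360 (212 counts in replicate 2 and 178 in replicate 1). Gm22973, a U2 copy with 9 differences from Rnu2-10, had 32 counts in replicate 2 and 50 in replicate 1.

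Base 109 of U2, just after the Sm site, divided the U2 genes by place. Of the U2 genes, 5 had G there, 5 had C and 1 (Gm22973) had A. The 5 genes with G lie together at chr11:101604850-101658428. The genes with C are the 4 at chr1:72226240-72255198 and Gm23444, elsewhere on chromosome 11. Genes with G held 47.8% of U2 counts in replicate 2 (Wilson 95% interval 47.3 to 48.3) and 46.3% in replicate 1 (45.8 to 46.8). Genes with C held 52.1% in replicate 2 (51.6 to 52.6) and 53.5% in replicate 1 (53.0 to 54.0). Both forms were therefore measured at similar levels in both libraries, and the difference between libraries exceeded counting error but has no replicate check. The sums of these classes were the same in expected and posterior mean counts to within 0.00135%, although single copies were not. Whether CAST alleles carry the same base at these genes was not analysed here.

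The U4-like genes lie 795 bases apart at chr5:115489459-115490394 on the plus strand. Gm24265 (chr5:115489459-115489599) differs from Gm24407 by A88G and A99C, shown in capitals because these bases separate the counts of the pair.
Gm24265: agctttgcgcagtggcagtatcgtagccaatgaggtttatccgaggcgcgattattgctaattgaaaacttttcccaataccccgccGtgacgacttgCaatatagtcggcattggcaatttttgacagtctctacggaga
Gm24407 had 2230 counts in replicate 2 and 2512 in replicate 1. Gm24265 had 1925 counts in replicate 2 and 2522 in replicate 1, and its deposited TPM intervals (1328 to 1452 in replicate 2, 1492 to 1612 in replicate 1) did not overlap. Gm24407 held 53.7% of the pair's counts in replicate 2 (Wilson 95% interval 52.2 to 55.2) and 49.9% in replicate 1 (48.5 to 51.3). Both copies were thus measured at near-equal levels. The pair's balance differed between the libraries by more than counting error, but this has no replicate check.

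The minor spliceosome was represented by 2 low genes. Rnu12, the U12 gene, had 54 counts in replicate 2 (exact Poisson 95% interval 40.6 to 70.5) and 25 in replicate 1 (16.2 to 36.9), or 32.0 TPM in replicate 2 and 12.6 TPM in replicate 1. Its log2 ratio of replicate 2 over replicate 1 was 1.25, and neither the counting intervals nor the deposited TPM intervals overlapped. Gm25541, the U6atac-like gene, had 26 counts in replicate 2 and 29 in replicate 1, or 30.3 TPM in replicate 2 and 28.7 TPM in replicate 1. Gm25541 overlapped between libraries and Rnu12 did not. Rnu11, the U11 gene, had 3 counts in replicate 2 and 4 in replicate 1 and lay just outside the limit of 10, as did Gm23887, with a mean of 3.5 counts each. The genes just inside were Gm25541 with a mean of 27.5 and the U1a copy Gm24924 with a mean of 28.3. U4atac had no named copy to compare with, and only genes among the 30 were named from their letters. No model was therefore assigned to it and its level was not determined. The 644 models outside the 30 without a match to a named copy held 24.6 counts in replicate 2 and 28.6 in replicate 1 in all.

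U5, U6 and U7 were not among the 30 genes. All 587 models of U6, which have a median length of 107 bases, had effective lengths under 20 bases, and 56 of them had 0. Their effective lengths summed to 3460 bases, beside 3624 for all models of U1a, and together they held 1 count in replicate 2 and 1 in replicate 1. The 10 models of U5, with lengths of 116 to 117 bases, also had effective lengths under 20, summing to 162 bases, and held 0 counts in replicate 2 and 2 in replicate 1. The 34 models of U7 had an effective length of 0 and no counts. With an effective length of 0 a U7 gene has no TPM in these tables, whereas U5 and U6 models could receive counts and had almost none. Why they had so few was not tested. Over all 1383 snRNA models, 1074 had effective lengths under 20 bases and 216 of these had 0. Outside the 30 genes, 36 models had some count, summing to 41.0 in replicate 2 and 48.3 in replicate 1, and 1317 had none in either library.

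The second set of transcript tables, made from the reads and a transcript index, held almost none of these RNAs. The 30 genes received 6.22 counts in replicate 2 and 6.44 in replicate 1, all in U2, and 22 of the 30 were at 0 in both libraries. Over annotated genes with 1 transcript, the index-based tables held 0% of the gene tables' counts at lengths over 100 and up to 150 bases, in both libraries. At lengths over 150 and up to 200 bases they held 0.0138% in replicate 2 and 0.0221% in replicate 1. At lengths over 200 and up to 250 bases they held 0.448% in replicate 2 and 0.420% in replicate 1. At lengths over 250 and up to 300 bases they held 66.6% in replicate 2 and 66.1% in replicate 1, and above 1000 bases 110.4% in replicate 2 and 110.5% in replicate 1. At lengths over 350 and up to 500 bases they held 31.1% in replicate 2 and 30.3% in replicate 1. Counts near 0 were thus shared by the genes of up to 250 bases as a class, and the levels of the snRNAs rest on the gene tables alone.

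Between the libraries the snRNAs were close in sum. The log2 ratio of replicate 2 over replicate 1, from counts scaled by edgeR's TMM factors with 0.5 added, was 0.14 for the sum of the 30 genes. It was 0.12 for U2, 0.26 for U1 (0.26 for U1a and 0.70 for U1b) and −0.12 for the U4-like pair. The U1b value included Gm22042, with an expected count of 0 in replicate 1, and the identical U1b copies Gm22614 and Gm25890 alone gave 0.32. Other short RNA classes had log2 ratios of summed counts of −0.06 for small nucleolar RNAs, −0.03 for small Cajal body RNAs and 0.96 for genes typed misc_RNA, which had 357 counts in replicate 2 and 205 in replicate 1. Over single genes the median was 0.28 for the 30 snRNA genes, with 23 above 0 and 7 below, beside 0.00 over all 17751 genes with a mean count of 10 or more. The 7 identical U1a copies enter that median with 1 value repeated, and over the 19 distinct sequences the median was 0.16, with 12 above 0 and 7 below.

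At least 2-fold apart were 6 of the 30 genes, 5 higher and 1 lower in replicate 2, or 20%. Of all genes with a mean of 10 or more, 6.34% were this far apart, 4.21% higher and 2.14% lower in replicate 2. Among genes with a mean of 100 or more it was 1 of 21 snRNA genes (4.76%), beside 1.33% of all such genes, 0.577% higher and 0.751% lower in replicate 2. A count this small, in genes whose copies share reads, gives no ground to set the snRNAs apart. The 6 genes were Gm24497, Gm26316, Rnu12, Gm26244, Gm22042 and Gm24924. Of them, Gm26316 and Rnu12 had deposited TPM intervals that lay apart in the 2 libraries. Gm26316, the U2 copy with C170T, had 109 counts in replicate 2 and 45.2 in replicate 1 (36.3 and 12.8 TPM in replicates 2 and 1, log2 ratio 1.42), and shared 84.5% of its words.

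**Figure D3:**
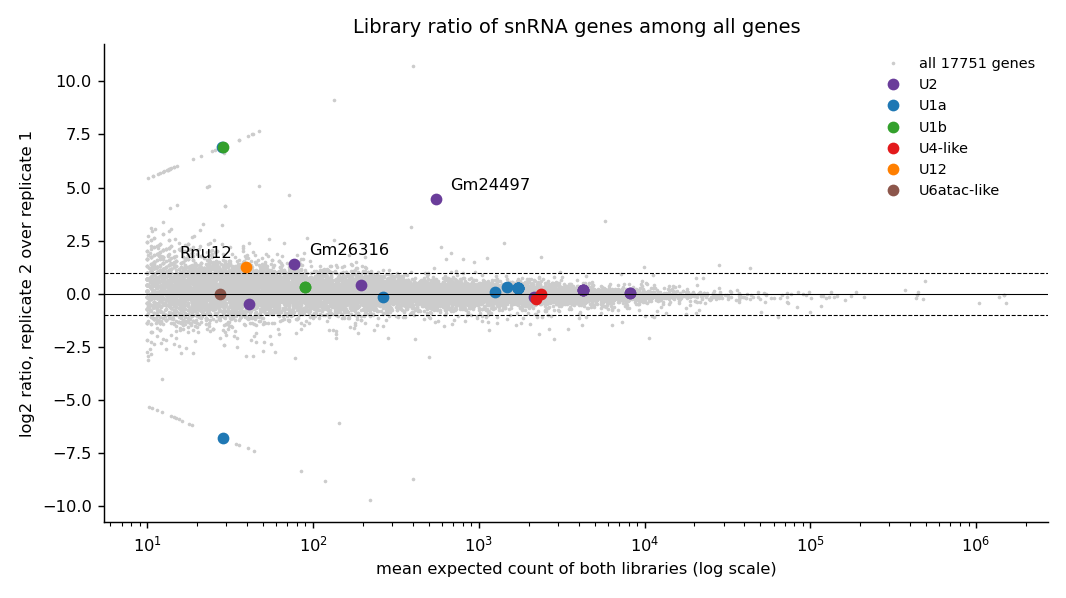
Log2 ratio of replicate 2 over replicate 1 (vertical axis) against the mean expected count of both libraries (horizontal axis, log scale) for 17751 genes in grey and the 30 snRNA genes in colours by family; dashed lines mark 2-fold. Most snRNA genes lie near 0, Gm24497 stands at 4.47, and the 3 coloured genes beyond 6 in either direction have an expected count of 0 in 1 library.

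The largest ratio among the 21 genes with a mean of 100 or more was not the same in the 2 deposited estimates of the count. Gm24497 had 1048 expected counts in replicate 2 and 52.0 in replicate 1, a log2 ratio of 4.47. Its posterior mean counts, deposited in the same tables, were 3964 in replicate 2 and 4075 in replicate 1, a log2 ratio of 0.12. Its TPM of 348 in replicate 2 lay below its own deposited interval of 544 to 1884, and its TPM of 14.7 in replicate 1 lay below its interval of 316 to 1962. The 2 deposited estimates thus gave different readings of this gene, similar in both libraries or over 20-fold apart. It differs from the abundant copy Gm23472 only at base 186 and shared 95.8% of its words. Over the 5 U2 genes with C at base 109, which include both copies, the 2 estimates gave equal sums. These were 18664 counts in replicate 2 and 19633 in replicate 1.

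The 2 estimates also differed for the 3 genes at 0 in 1 library, although the direction between libraries stayed. With posterior mean counts the log2 ratios were 2.70 for Gm22042, 1.29 for Gm24924 and −0.80 for Gm26244. Gm22042, a U1b copy (chr4:51812483-51812647, minus strand), had 57.0 expected counts in replicate 2 and 0 in replicate 1. Its posterior mean counts were 66.0 in replicate 2 and 10.9 in replicate 1. The U1a copy Gm24924, within Ss18, had 56.6 expected counts in replicate 2 and 0 in replicate 1, and posterior means of 123 in replicate 2 and 55.7 in replicate 1. The U1a copy Gm26244, within Rock1, had 0 expected counts in replicate 2 and 57.2 in replicate 1, and posterior means of 68.0 in replicate 2 and 132 in replicate 1. The posterior means were above 0 in both libraries for all 3 genes, so an expected count of 0 is not evidence that a copy was silent, and no fold is given against it. The listed TPM lay outside the gene's own interval for these 3 genes in the library at 0 and for Gm24497 in both, 4 genes in all.

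**Figure D4:**
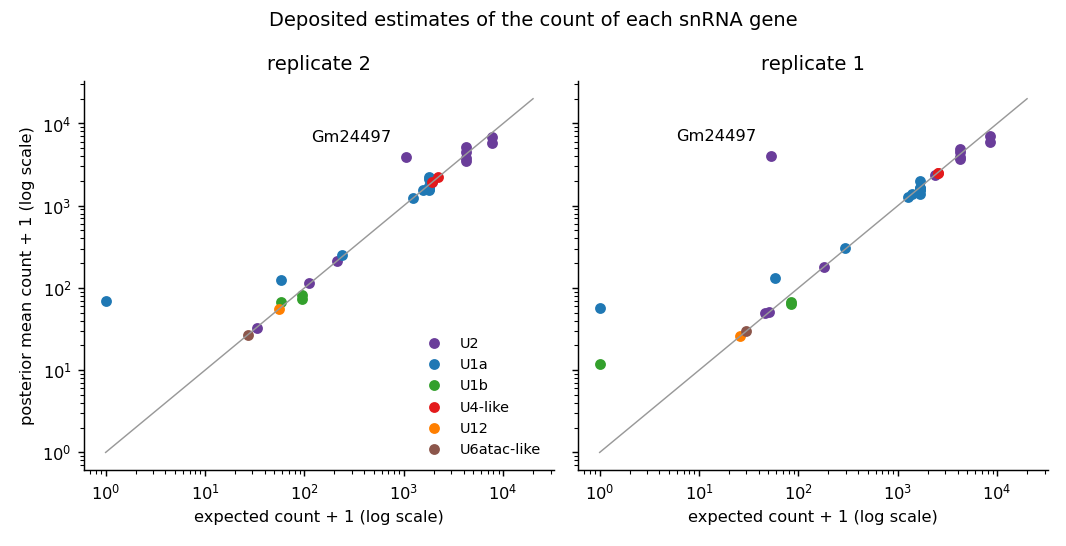
Posterior mean count plus 1 (vertical axis, log scale) against expected count plus 1 (horizontal axis, log scale) of the 30 snRNA genes in replicate 2 (left) and replicate 1 (right), coloured by family; the grey line marks equal values. Gm24497 lies far above the line in replicate 1, at 4075 against 52.0, and less so in replicate 2, at 3964 against 1048, while the U4-like genes and Rnu12 lie on it.

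In the genome, 22 of the 30 genes lay in 6 clusters with gaps of at most 100000 bases, and 8 were single. U2 genes formed a cluster of 4 on chromosome 1, all on the plus strand, with 10929 counts in replicate 2 and 11126 in replicate 1, and a cluster of 5 on chromosome 11, with 17112 counts in replicate 2 and 16996 in replicate 1. U1a genes formed a cluster of 7 at chr12:54696782-54738622, 4 on the plus and 3 on the minus strand, with 10813 counts in replicate 2 and 9990 in replicate 1. Rnu1a1 and Gm22068 form a pair at chr11:87422867-87426879 within Tex14, on its strand. The U1b pair Gm25890 and Gm22614 lies at chr3:96486555-96488893 on opposite strands. The sums on chromosome 12 and chromosome 1 hold part of an identical group and depend on the equal split of its counts, and the chromosome 1 sum also holds Gm24497, whose deposited estimates differ. The chromosome 11 cluster of U2 holds all 4 copies of its abundant sequence. Gm23472, Gm24497 and Gm25939 lie within D230017M19Rik and Gm23849 within Rdm1, on the same strand as these genes. Fragments of an unspliced host transcript could therefore not be told from theirs. The own words of Gm25939 were in no other annotated transcript.

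**Figure D5:**
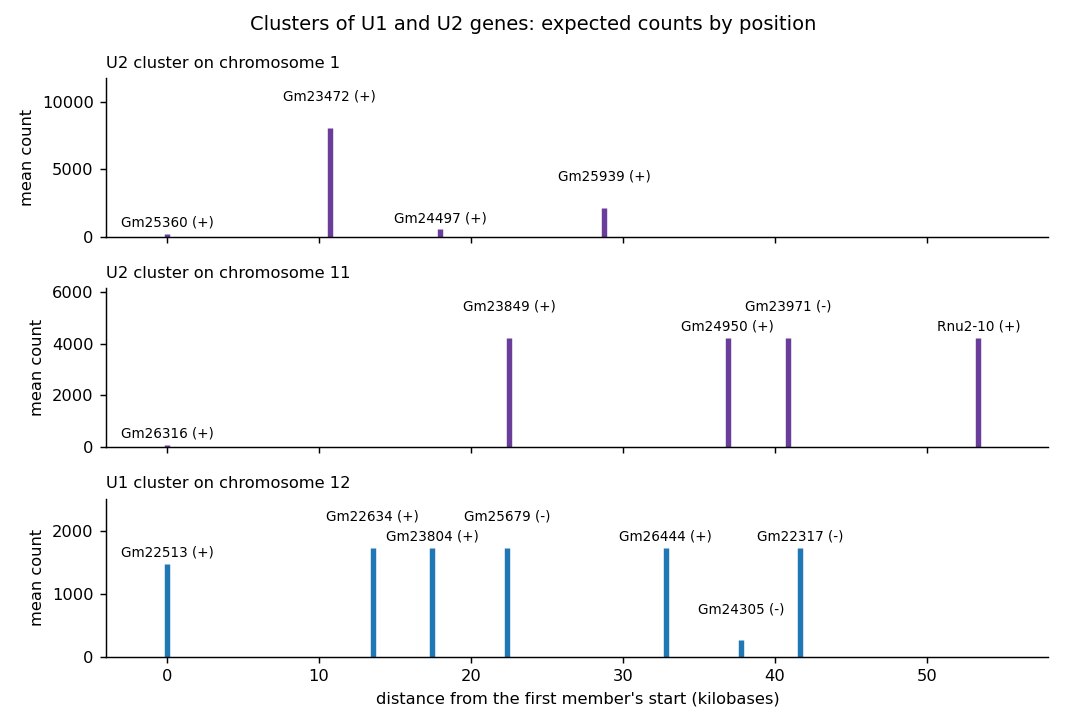
Mean expected count of both libraries (vertical axes) of the genes in the 3 largest clusters, by distance from the first gene's start in kilobases (horizontal axis), with the strand in brackets. Bars of equal height are copies of identical sequence whose counts were divided equally, as in the chromosome 11 cluster of U2 and 5 genes of the chromosome 12 cluster of U1.

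The protein genes of the same particles were taken from 11 lists chosen with earlier results of these data known. Of 116 listed genes, 114 were found, all with a mean count of 10 or more, and 0 were at least 2-fold apart. A mean of 100 or more was reached by 113 of them, and of all genes at that level 1.33% were 2-fold apart, so 0 lies near the share over all genes. Their median log2 ratio was −0.01, with 52 above 0 and 62 below, and of all 17751 genes with a mean of 10 or more 8978 were above 0. Genes of the Sm ring had a median of −0.06, with 2 of 8 above 0. Its most abundant members were Snrpg (110 TPM in replicate 2 and 116 in replicate 1) and Snrpb (59.8 TPM in replicate 2 and 59.4 in replicate 1). Genes of the Lsm ring had a median of −0.16, with 1 of 7 above 0, led by Lsm6 (58.1 TPM in replicate 2 and 44.5 in replicate 1) and Lsm4 (26.2 TPM in replicate 2 and 28.6 in replicate 1).

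Among proteins of single particles, the U1 list had a median of 0.01 and the U2 list −0.02. Snrnp70, which binds U1 RNA directly, had 95.7 TPM in replicate 2 and 80.1 in replicate 1, with a log2 ratio of 0.51, and Snrpa had 30.3 TPM in replicate 2 and 27.0 in replicate 1. Sf3b1, the U2 protein at the branch site, had 57.5 TPM in replicate 2 and 41.4 in replicate 1, with a log2 ratio of 0.44, whereas Sf3b2 had 67.1 TPM in replicate 2 and 63.9 in replicate 1. The ratios of all 4 genes stayed under 2-fold. The U4/U6.U5 list had a median of −0.01, and Prpf8, the large scaffold of the catalytic core, had 59.6 TPM in replicate 2 and 57.0 in replicate 1. Snu13, a protein of the U4 stem, had 28.2 TPM in replicate 2 and 32.7 in replicate 1. The minor spliceosome list had a median of 0.13, with 11 of 13 genes above 0 (8978 of 17751 over all genes), led in level by Zcrb1 (28.2 TPM in replicate 2 and 24.6 in replicate 1) and Zmat5 (22.4 TPM in replicate 2 and 16.0 in replicate 1). The ratios of its genes lay between −0.14 and 0.39.

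Genes of snRNA production were also close between the libraries. The snRNA transcription list had a median of 0.05 over 12 genes, led by Snapc2 (14.2 TPM in replicate 2 and 11.2 in replicate 1) and Snapc4 (13.0 TPM in replicate 2 and 8.52 in replicate 1), both subunits of the complex that binds snRNA promoters. The Integrator list, whose complex cuts the 3′ ends of snRNAs, had a median of −0.03 over 14 genes, led by Ints3 (43.0 TPM in replicate 2 and 41.1 in replicate 1) and Ints4 (24.0 TPM in replicate 2 and 24.2 in replicate 1). The list of export, assembly and import had a median of −0.10 over 19 genes, led by Strap (42.7 TPM in both libraries) and the import receptor gene Kpnb1 (44.3 TPM in replicate 2 and 39.5 in replicate 1). It held the highest ratio of all 114 genes, 0.66 for Gemin6, and the lowest was −0.41 for Lsm5. The U6 list had a median of 0.03, led by Ssb (54.8 TPM in replicate 2 and 53.2 in replicate 1), which binds new U6 RNA, and Mepce (19.6 TPM in replicate 2 and 18.5 in replicate 1). The 2 genes of the U7 ring, Lsm10 and Lsm11, were measured at 11.4 and 4.26 TPM in replicate 2 and at 10.7 and 4.80 TPM in replicate 1, although U7 RNA itself could not be counted.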

How the data were processed

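Total RNA-seq of mouse adrenal gland was analysed from 2 libraries of 1 group. The labels give them separate animal numbers but 1 donor code, so the SD measures only the spread between these libraries, which may be partly technical. Expected counts and posterior mean counts were deposited per gene as estimated counts, from transcriptome alignments on mm10 with GENCODE M21 per the file headers and notes. TPM and FPKM were deposited by the authors, scaled by effective length. The deposited posterior SD of a count is a score of estimation error, in counts, and the deposited bounds of TPM are treated as a signal on the TPM scale whose interval level is not given. A second table of estimated counts and TPM was deposited, made from the reads and a transcript index. For the programs, their versions and any use of strand in counting: not given in the sources used here.

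Genes typed snRNA were kept where expected counts averaged at least 10. The members and lists were chosen with earlier results of these data known. Rounded counts gave TMM factors in edgeR 4.0.16 (R 4.3.3), with DESeq2 1.42.0 as an alternative, and log2 ratios are replicate 2 over replicate 1 with 0.5 added, and no test was run, there being 1 library per side. The ratio step was tested on simulated counts and the word step on made-up sequences. Families were assigned with BLAST 2.17.0 and Biopython 1.88, and names of unmatched genes were set after the sequences were seen. Shares have Wilson 95% intervals. The genes named were those with a family name, the 3 most abundant of each family, those at least 2-fold apart, those beside the limit of 10, groups of identical copies and, for proteins, the 2 with the highest TPM in each list. Gm22973, Gm24305 and Gm25360, and the proteins Lsm5 and Gemin6, were named after their values were seen, as was the split of U2 by base 109. Remaining steps used Python 3.11.15 (scipy 1.17.1, pandas 2.3.3, numpy 2.4.6) and figures matplotlib 3.10.9. Other count limits, scalings, added constants and word lengths, FPKM, the index-based tables and each library left out were tried as alternatives.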

Additional observations from a re-analysis of the deposited data

How the results depend on the processing

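No paired analysis was possible because the samples form 1 group. Between 21 and 30 genes met the count limits tried, and 27 matched a named family also at 90% identity over 90%. Left out in turn, the libraries gave 52.7 to 53.1% of the genes' TPM for U2, 30.5 to 33.4% for U1, 13.6 to 16.2% for the U4-like pair and 19506 to 22572 TPM in sum. With expected counts these shares were 64.4%, 27.3% and 8.16%, and per kilobase of full length 59.9%, 29.6% and 10.3%. With a mean of 100 or more, U2 held 53.3%. With index-based counts or TPM, U2 held 100% and the others 0%, and the sum was 3.13 TPM, so no order of families could be given there. The log2 ratio of the sum, 0.14, was 0.22 with total counts, 0.11 with spike-in totals, 0.21 with TPM and 0.10 with index-based counts. The ratio of the U4-like pair stayed below 0 with every count scaling and with TPM, but those of Gm24407 and Gm25541 changed sign with total counts. The median ratio was 0.00 with index-based counts, 0.12 with posterior mean counts and 0.12 with 1 value per family. The number at least 2-fold apart, 6, was 2 where TPM intervals also had to be apart, 1 with index-based counts, 3 without genes at 0 in 1 library and 4 with posterior mean counts. Gm24497 turned to −1.53 with index-based counts, in which it had 0 counts in replicate 2 and 1 in replicate 1. The posterior mean counts, the words of 100 bases, the removal of genes at 0, the shares of expected counts and the values per distinct sequence were chosen after seeing the data. The protein lists kept 0 genes at 2-fold under the 3 other scalings. Depth limits the precision for the minor snRNAs, at under 60 counts per library, and U7 has an effective length of 0.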
